A study of Caenorhabditis elegans with 8 samples.

Results

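Among the genes of *C. elegans* that the expression tables list under a sequence name (a clone or cosmid name with a dot, such as C14C6.5) and not under a gene symbol, 201 were higher in *nmad-1* germlines than in WT germlines at both 20°C and 25°C. They were selected on these measured values. A member had a mean value of at least 10 in the table of each temperature, a ratio of means, (*nmad-1* + 1)/(WT + 1), of at least 2 in each, and both *nmad-1* libraries above both WT libraries in each. The tables list 46739 genes, of which 20389 have a sequence name, and 5243 of these reached a mean of 10 in both tables. The members were 3.83% of these 5243 candidates. Because the rule used the genotype difference, that difference is described for the members and not tested. The 201 genes hold 199 distinct sets of values, since F07B7.1 and F07B7.2 have the same values in all 8 libraries as W09B7.1 and W09B7.2, to which the current annotation gives the same symbols.

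The samples were *nmad-1*(ok3133) worms at 20°C, WT worms at 20°C, *nmad-1*(ok3133) worms at 25°C and WT worms at 25°C, with 2 libraries in each group. The ok3133 allele is a deletion on linkage group III that takes out most of the AlkB domain of NMAD-1, the WT background was the N2 Bristol strain, and both genotypes were fed dam- dcm- bacteria. The labels give the L4 larval stage, and each mRNA preparation pooled the germlines of 100 worms, so every library is a pool and speaks for the 1 deletion strain used. Values are expected counts scaled by a size factor within each temperature, and since the tables number no replicates, A and B only name the libraries within a group. Where both values of a group are given below, library A comes before library B.

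The hermaphrodite germline of *C. elegans* makes sperm around the last larval stage and then switches to oocytes, and the gut, the gonadal sheath and the body wall lie next to it. Sperm carry large amounts of the major sperm proteins, small cytoskeletal proteins encoded by a large gene family. Sperm genes are rare on the X chromosome, which is kept silent through much of the life of germ cells. A sequence name tells where a gene was found and nothing of what it does, and current annotation has since given symbols to some of these genes.

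The labels were first checked against the deleted gene. The transcript of *nmad-1*, listed as F09F7.7, had 114 and 131 in *nmad-1* libraries against 540 and 471 in WT libraries at 20°C, and 170 and 171 in *nmad-1* against 764 and 753 in WT at 25°C. All 16 germline markers on the list used here were measured in both genotypes. At 25°C all 16 were called lower in *nmad-1* (median log2 fold change −0.91), as were 4545 of all 11955 genes tested. The estimated depth was 18451560 to 33429309 reads per library, and ribosomal RNA genes took 22.2% to 34.8% of the values, the most being in the *nmad-1* library called A at 20°C. At 25°C the values summed to 22505100 and 21937600 in *nmad-1* and to 33108100 and 32929700 in WT, so the genotypes of that table differ in total as well. With the libraries scaled to the same total, 767 of 12235 genes were called lower there. The part of the totals in the difference of the germline markers was not tested. These are bulk samples, in which fewer cells of a type and less RNA per cell cannot be told apart.

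As a group the members were a small share of the transcripts. Per 10000 of the values outside ribosomal RNA, they took 11.4 and 6.97 in *nmad-1* libraries A and B and 2.40 and 2.31 in WT libraries at 20°C. At 25°C they took 13.2 and 21.3 in *nmad-1* and 1.59 and 1.55 in WT. The median member had a mean of 35.9 in *nmad-1* and 7.52 in WT at 20°C, and of 79.0 in *nmad-1* and 6.21 in WT at 25°C, so the median member rested on a few reads in each WT library. For 77 of the 201 no WT library reached 10.

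The median log2 fold change of the members, on the log2(value + 1) scale, was 1.70 at 20°C and 3.21 at 25°C, where the medians of all genes tested were −0.05 and −0.09. The ratio of means reached 4 for 85 members at 20°C and for 148 at 25°C, and it reached 10 for 32 and 97 members. At 20°C, 20 of the 201 members passed an adjusted p of 0.05 (limma, Benjamini-Hochberg over all genes), where 0.343% of all genes tested were called higher. At 25°C, 195 members passed, where 32.8% of all genes were called higher. All 20 members called at 20°C were called at 25°C too. These counts draw on the values that chose the members, and nothing is read from them. The p-values rest on the spread between the 2 libraries of a group, drawn towards a trend fitted over all genes, and on no variation beyond these libraries. Without the trend, 1 member was called at 20°C. The count at 20°C went down to 0 with upper quartile scaling, under which 71 members had an unadjusted p under 0.05.

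**Figure D1:**
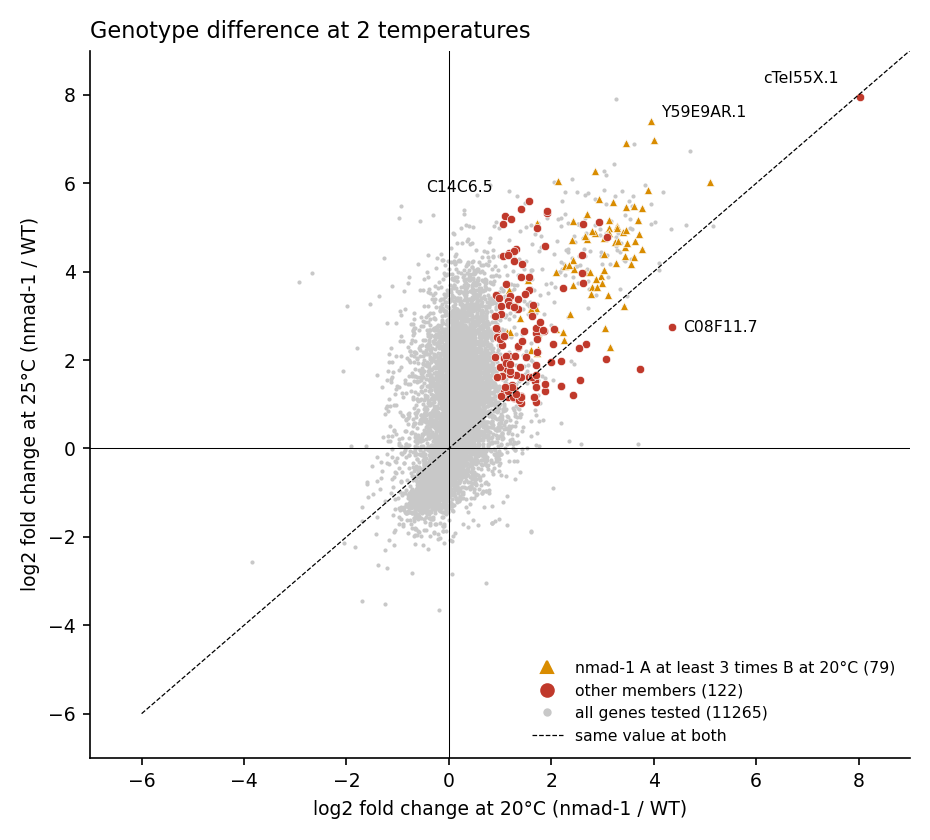
Each point is a gene placed by its log2 fold change (*nmad-1* over WT, on the log2(value + 1) scale) at 20°C on the x axis and at 25°C on the y axis. Triangles are the 79 members with *nmad-1* library A at least 3 times library B at 20°C, circles the other members, small grey points all 11265 genes tested at both temperatures, and the dashed line equal values; 170 members lie above that line, and cTel55X.1 is far from the others at 8.04 and 7.96, values that depend on the 1 added since its WT libraries are at 0.

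The fold threshold cuts through a continuous range of values. Just inside it at 20°C were Y110A2AL.4 with a ratio of 2.00169, C39D10.11 with 2.00305 and C44F1.1 with 2.00354. Just outside were F17C11.12, whose ratio was 1.997 at 20°C and 6.58 at 25°C, T26H5.9 with 1.987 and 7.19, and Y19D10A.4 with 1.989 at 20°C and 1.982 at 25°C. F17C11.12 stands beside a member by name, F17C11.11, and its values in the *nmad-1* libraries at 20°C were 73.8 and 52.5, above 33.9 and 28.4 in the WT libraries.

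The gene with the largest difference at both temperatures was cTel55X.1, the last protein-coding gene of the X chromosome in the current annotation. It had 225 and 304 in the *nmad-1* libraries at 20°C and 213 and 291 at 25°C, and was listed at 0 in all 4 WT libraries. It was the only member at 0 in every WT library. Against a limit of 3 reads in each WT library, the *nmad-1* mean was at least 74.7-fold higher for 20°C, and for 25°C the bound was 80.4-fold, with an SD between the *nmad-1* libraries of 56.3 and 55.1 (n = 2). Its *nmad-1* means in the tables of both temperatures, 264 and 252, differed by less than that spread.

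C08F11.7 on chromosome IV also had a large and even difference at 20°C. It had 176 and 215 in *nmad-1* against 7.36 and 9.76 in WT at 20°C, and 256 and 202 in *nmad-1* against 34.7 and 31.8 in WT at 25°C. Its log2 fold change was 4.37 at 20°C and 2.74 at 25°C, and what moved between the temperatures was mainly the WT value, each temperature having been scaled in a table of its own. H14E04.3 on chromosome III had the same form at a lower level, with 55.5 and 55.9 in *nmad-1* against 10.3 and 8.88 in WT at 20°C, and 96.1 and 66.7 in *nmad-1* against 32.7 and 35.1 in WT at 25°C. C09D4.3 on chromosome I had the lowest difference between temperatures, −1.94, but its *nmad-1* libraries at 20°C lay apart, at 42.3 and 15.3, against 2.94 and 0 in WT.

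**Figure D2:**
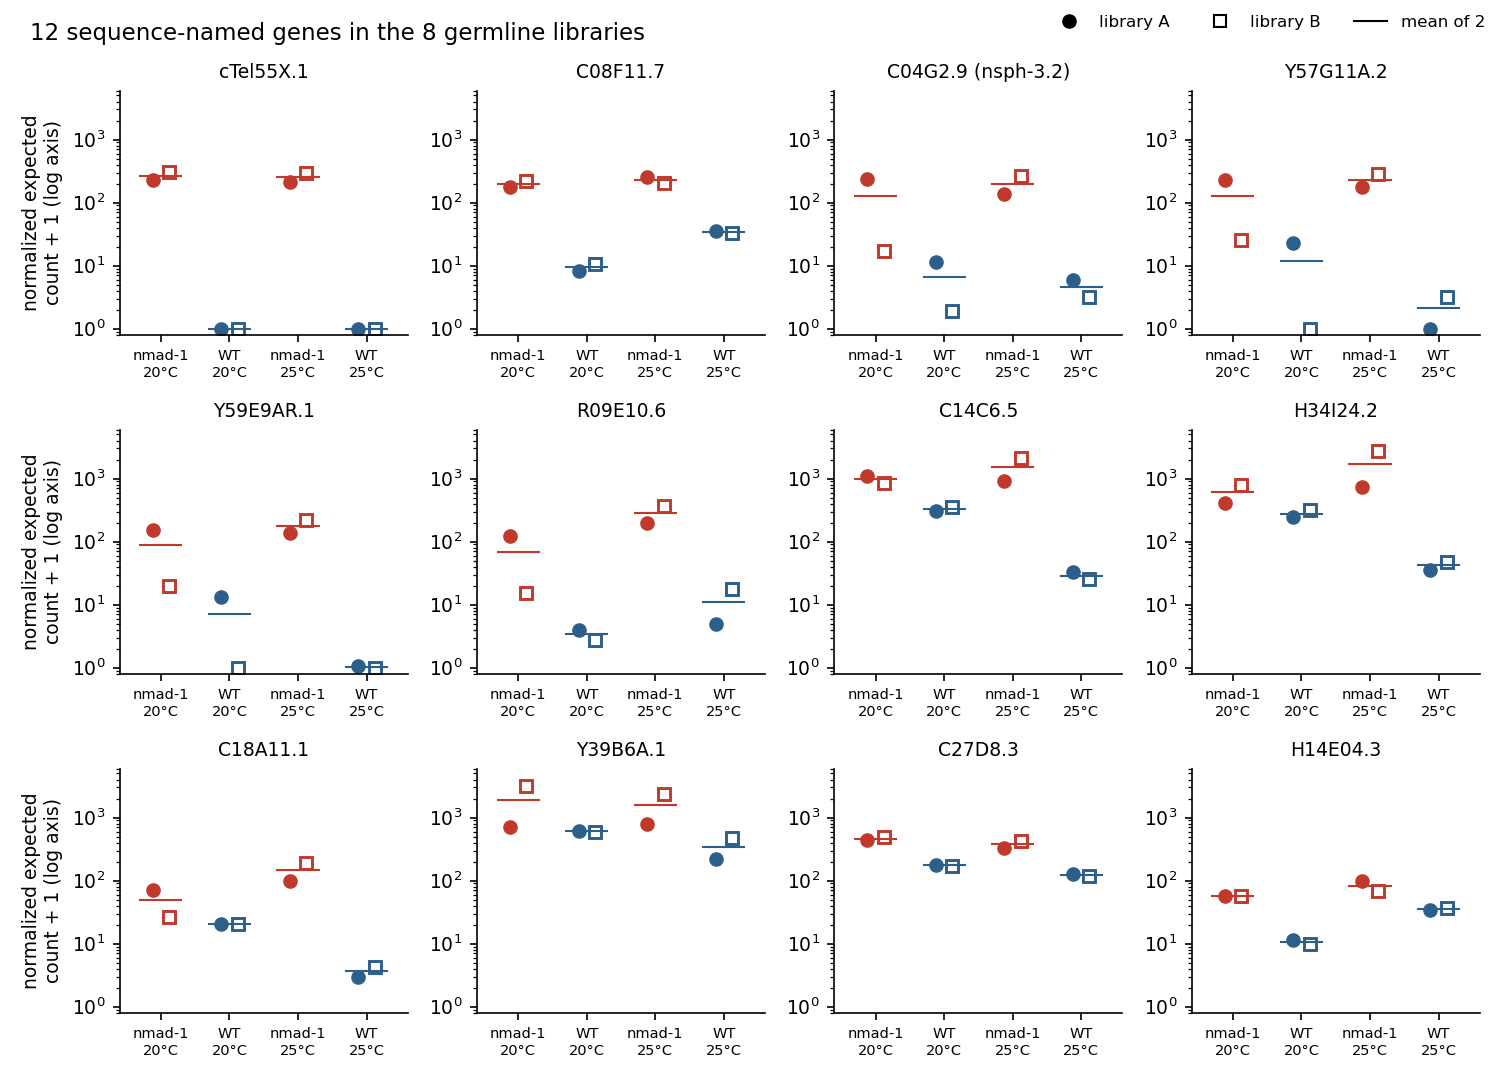
Values of 12 members in all 8 libraries, as normalized expected count + 1 on a log axis, with *nmad-1* (red) left of WT (blue) at each temperature, library A as a filled circle, library B as an open square and the mean of both as a bar. cTel55X.1 and C08F11.7 have close *nmad-1* libraries at 20°C, whereas C04G2.9 has 235 in library A and 16.1 in library B.

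At 20°C the *nmad-1* libraries of many members did not lie close together. Library A was above library B for 166 of the 201 members (82.6%), against 38.3% of all genes tested. For 79 members (39.3%) A was at least 3 times B (with 1 added to each value), against 5.4% of all genes tested. The lower *nmad-1* library was under 1.5 times the higher WT library for 86 members at 20°C and for 1 member at 25°C, and the SD of the *nmad-1* libraries was larger than the difference of the genotype means for 86 members at 20°C and for 2 at 25°C. The letters do not link libraries of different temperatures, so no order is carried over from 20°C to 25°C. At 25°C B was above A for 173 members (86.1%), against 49.0% of all genes, and at least 3 times A for 13.

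The 79 members with the uneven *nmad-1* libraries at 20°C had the larger median difference at both temperatures. Summed over these 79 genes, *nmad-1* libraries A and B had 6020 and 897 and WT libraries A and B 604 and 210 at 20°C. At 25°C the sums were 5903 and 10536 in *nmad-1* and 398 and 366 in WT. The low sum of library B at 20°C follows from how the 79 were picked. The split also favours a larger median at 20°C, since library B had to lie above both WT libraries and A far above B. The 79 had lower WT values too, with a median WT mean of 3.68 at 20°C against 12.2 for the other members. At 25°C, which the split did not use, both *nmad-1* libraries were above WT, as the rule required of every member. Their median log2 fold change was 2.898 at 20°C and 4.34 at 25°C. For the other members the sums were 12424 and 13002 in *nmad-1* and 4460 and 4539 in WT at 20°C, and 15753 and 25195 in *nmad-1* and 3377 and 3576 in WT at 25°C, with medians of 1.38 and 2.37. The near equality of the *nmad-1* libraries in this sum at 20°C rested on the few genes higher in B: A was above B for 87 of these members, and without the 10 members that had B at least 1.5 times A at both temperatures the sums were 10784 and 7787.

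The major sperm protein genes have symbols and so could not be members, whatever their values. Their sum was far higher in *nmad-1* library A than in library B at 20°C. Summed over the 35 listed, they had 3908 and 366 in *nmad-1* libraries A and B and 387 and 9.76 in WT libraries A and B at 20°C, and 3437 and 5262 in *nmad-1* and 103 and 89.9 in WT at 25°C. All 27 of these genes with a level of at least 10 in an *nmad-1* library at 20°C had A at least 3 times B. At 25°C all 27 tested were called higher in *nmad-1* (median log2 fold change 5.11), and at 20°C 6 of 27 were (median 3.31). Of all genes tested, 32.8% were called higher at 25°C and 0.343% at 20°C. On a list of 19 further sperm genes, 8 of the 15 at that level had A at least 3 times B at 20°C, 1 of 12 tested was called higher at 20°C, and 12 of 14 were called higher and 1 lower at 25°C. Its median log2 fold change was 1.62 at 20°C and 3.53 at 25°C. Without spe-39, the other 18 genes summed to 1144 and 667 in *nmad-1* against 378 and 253 in WT at 20°C, and to 2004 and 2555 in *nmad-1* against 735 and 716 in WT at 25°C. With spe-39 the sums were 3051 and 3388 in *nmad-1* against 2995 and 2838 in WT at 20°C, and 4782 and 4920 in *nmad-1* against 4377 and 4466 in WT at 25°C. At 20°C, 5 major sperm protein genes were at 0 in both *nmad-1* libraries and 6 in both WT libraries. The part of sperm RNA in the values of the members was not tested.

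**Figure D3:**
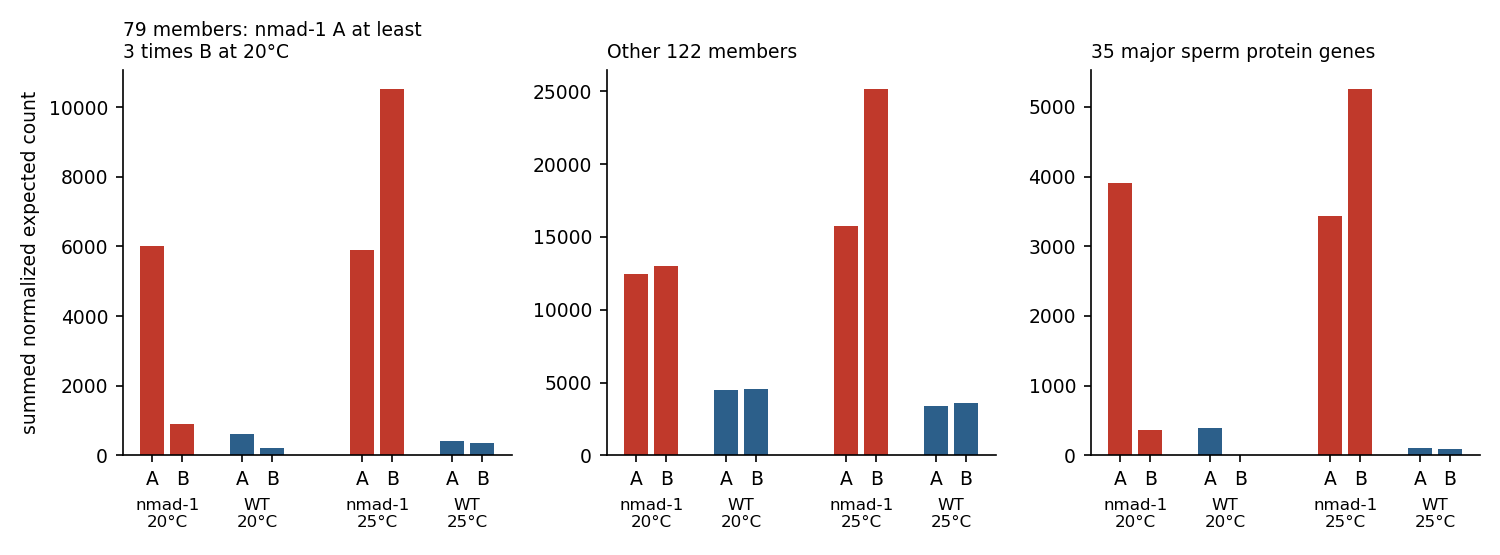
Summed normalized expected count (y axis, from 0) in each library for the 79 members with *nmad-1* library A at least 3 times B at 20°C (left), for the other members (middle) and for the 35 major sperm protein genes (right), *nmad-1* in red and WT in blue. The left and middle panels were split on the *nmad-1* libraries of 20°C, so their shape there follows from the split. At 25°C the sums are 5903 and 10536 in *nmad-1* against 398 and 366 in WT on the left, and 3437 and 5262 in *nmad-1* against 103 and 89.9 in WT on the right.

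Library A of *nmad-1* at 20°C stood apart for some other tissues too. Body wall muscle markers summed to 100693 there and to 41314 in library B, against 45174 and 60375 in WT, pharynx markers to 17498 and 5090 in *nmad-1* against 5328 and 7659 in WT, and neuron markers to 14113 and 6730 in *nmad-1* against 7484 and 8132 in WT. The yolk protein genes vit-1 to vit-6, which hold most of the signal of the intestine list, summed to 97591 and 378059 in *nmad-1* against 277428 and 319965 in WT, whereas the other 10 intestine markers summed to 20575 and 23572 in *nmad-1* against 16225 and 17782 in WT. Epidermis and cuticle markers summed to 9049 and 6492 in *nmad-1* against 8454 and 9326 in WT, with library A between the WT libraries. Gonadal sheath and spermatheca markers summed to 17958 and 19816 in *nmad-1* against 21498 and 21553 in WT. Germline markers summed to 215523 and 313050 in *nmad-1* against 307123 and 299746 in WT. None of these lists had a gene at 0 in all libraries of a genotype at 20°C. At 25°C, 9 of 10 muscle, 4 of 4 pharynx, 11 of 13 neuron, 10 of 16 intestine and 14 of 16 innate defence markers were called higher in *nmad-1*, and 4 intestine markers were called lower. Of all 11955 genes tested at 25°C, 32.8% were called higher and 4545 genes lower. Gonadal sheath and spermatheca markers went both ways, with 2 of 7 called higher and 2 lower, as did epidermis and cuticle markers, with 4 of 8 called higher and 1 lower. The part of these tissues in the members' values was not tested.

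Current annotation gives a symbol to 23 of the 201 members, and 10 of these 23 belong to the 79. The nsph class of nematode-specific peptides held 4 members, all on chromosome IV. C04G2.9 (nsph-3.2) had 235 and 16.1 in *nmad-1* against 10.3 and 0.888 in WT at 20°C, and 136 and 261 in *nmad-1* against 4.95 and 2.19 in WT at 25°C. Y69E1A.2 (nsph-3.1) had 135 and 16.1 in *nmad-1* against 10.3 and 1.78 in WT at 20°C, and 77.8 and 117 in *nmad-1* against 12.9 and 4.39 in WT at 25°C. In both genes *nmad-1* library B lay just above WT library A at 20°C, while *nmad-1* library A was far above both WT libraries.

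The nsph-4 genes were close to absent from WT. Y59E9AL.2 (nsph-4.1) had 123 and 8.48 in *nmad-1* against 0 and 0 in WT at 20°C, and 103 and 218 in *nmad-1* against 0 and 4.39 in WT at 25°C. Y59E9AL.3 (nsph-4.2) had 166 and 8.47 in *nmad-1* against 5.89 and 0.888 in WT at 20°C, and 127 and 225 in *nmad-1* against 0.990 and 0 in WT at 25°C. The coding sequences of both are 1143 bases long in the annotation, and reads could be split between such copies, so the division of the signal between them is uncertain. Y59E9AR.1, a gene with a neighbouring clone name, had 154 and 18.9 in *nmad-1* against 12.1 and 0 in WT at 20°C, and 137 and 216 in *nmad-1* against 0.0495 and 0 in WT at 25°C, the largest log2 fold change at 25°C after that of cTel55X.1 (7.40 on the log2(value + 1) scale).

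The ttbk class, relatives of tau tubulin kinases, held C39H7.1 (ttbk-8.2) and W01B6.2 (ttbk-4). C39H7.1 had 92.8 and 7.63 in *nmad-1* against 5.89 and 0 in WT at 20°C, and 81.2 and 143 in *nmad-1* against 2.97 and 4.39 in WT at 25°C. W01B6.2 was lower, with 38.96 and 3.39 in *nmad-1* against 1.47 and 1.78 in WT at 20°C, and 35.5 and 73.6 in *nmad-1* against 0.990 and 3.29 in WT at 25°C. Like the nsph genes, both were high in 3 of the 4 *nmad-1* libraries and near WT in library B at 20°C. F32A11.3 (spe-18), a gene named for a spermatogenesis defect, had 120.2 and 36.4 in *nmad-1* against 35.3 and 10.7 in WT at 20°C, so that *nmad-1* library B and WT library A were level there, and 119 and 167 in *nmad-1* against 31.7 and 29.6 in WT at 25°C.

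The remaining members among the 10 with the largest smaller fold change had the same order of libraries at 20°C. Y57G11A.2 had 229 and 24.6 in *nmad-1* against 22.1 and 0 in WT at 20°C, and 174 and 287 in *nmad-1* against 0 and 2.19 in WT at 25°C. E03H12.5 had 146 and 17.8 in *nmad-1* against 11.8 and 0 in WT at 20°C, and 134 and 256 in *nmad-1* against 3.96 and 1.10 in WT at 25°C. R09E10.6 had 123 and 14.4 in *nmad-1* against 2.94 and 1.78 in WT at 20°C, and 194 and 368 in *nmad-1* against 3.96 and 16.5 in WT at 25°C. The groups did not overlap, as the rule requires, but for Y57G11A.2 and E03H12.5 *nmad-1* library B lay close to WT library A at 20°C. W03D8.9, F26B1.8 and F37A4.4 had 97.5, 111 and 39.8 in library A of *nmad-1* at 20°C and 12.1, 9.32 and 8.48 in library B, against 5.89, 5.89 and 1.47 in WT library A and 0 in WT library B. E03H12.5 and R09E10.6 overlap annotated genes on the other strand (anr-4 and ebax-1), and since the counting is not stated to use strand, reads of such partners cannot be told apart.

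**Figure D4:**
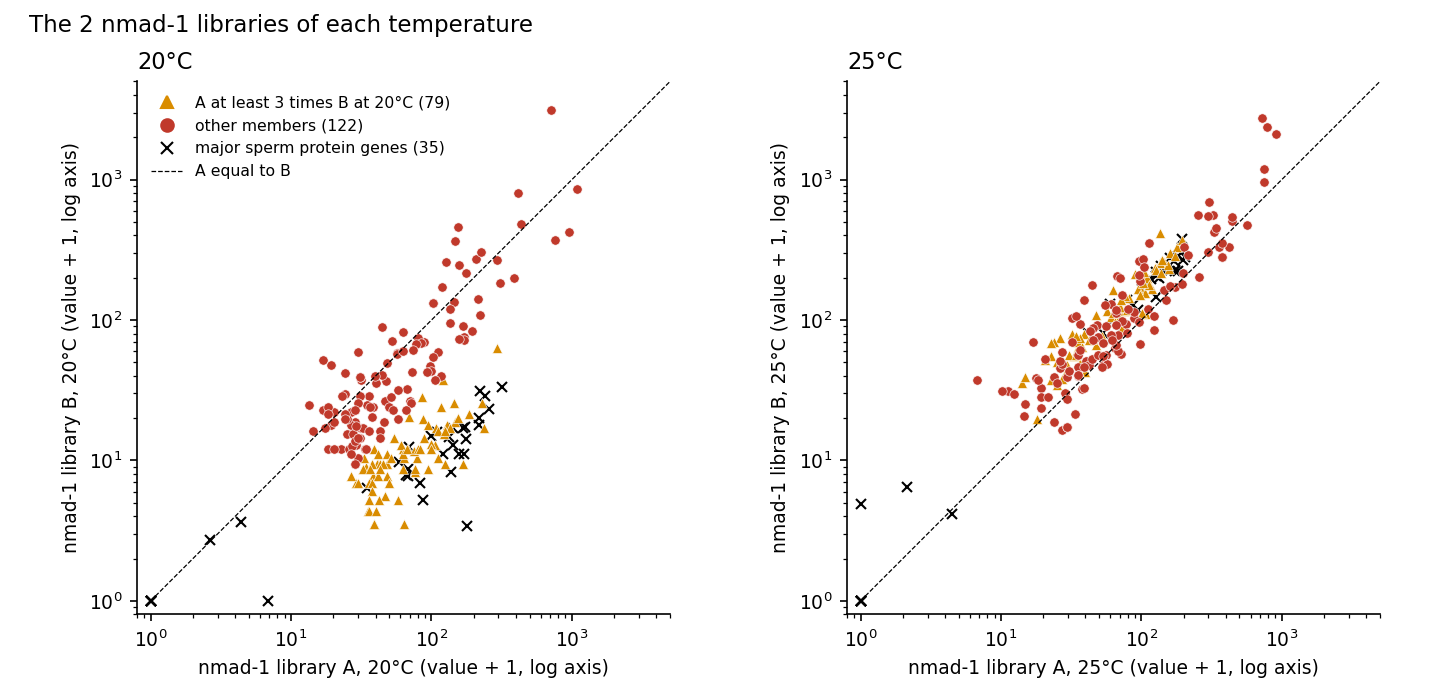
Library B (y axis) against library A (x axis) of *nmad-1* at 20°C (left) and 25°C (right), value + 1 on log axes, for the 79 members with A at least 3 times B at 20°C (triangles), the other members (circles) and the 35 major sperm protein genes (crosses); the dashed line marks equal values. The triangles and most crosses lie well below the line at 20°C and on its upper side at 25°C, where all 79 members had B above A.

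Most members had a larger difference at 25°C. The log2 fold change was higher at 25°C for 170 of the 201 members (84.6%), against 43.9% of all genes tested, and the median difference between the temperatures was 1.18, against −0.11 over all genes. The members were chosen to be higher in *nmad-1*, whereas all genes include those lower in *nmad-1*. These shares and medians are therefore not compared on like terms, and nothing is read from their distance. In the interaction of genotype and temperature (limma over the 8 libraries), 16 members were called for a larger difference at 25°C, where 8.07% of all genes were, and 1 member was called for a smaller difference, where 1.25% were. With 16 of 201 the members were called for a larger difference about as often as genes at large, and since the same values chose them no more is read from this.

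The members with the largest differences between temperatures were measured in both genotypes at 20°C, at levels far apart from each other, and had lower WT values at 25°C. C14C6.5 on chromosome V had 1083 and 861 in *nmad-1* against 306 and 350 in WT at 20°C, and 911 and 2107 in *nmad-1* against 31.7 and 24.1 in WT at 25°C. H34I24.2 on chromosome III had 410 and 803 in *nmad-1* against 243 and 312 in WT at 20°C, and 721 and 2732 in *nmad-1* against 34.7 and 47.2 in WT at 25°C. C18A11.1 on the X chromosome had 69.6 and 25.4 in *nmad-1* against 19.1 and 19.5 in WT at 20°C, and 97.2 and 190 in *nmad-1* against 1.98 and 3.29 in WT at 25°C. For all 3 the WT value in the table of 25°C was lower than that in the table of 20°C and the *nmad-1* mean was higher, although each table was scaled apart, and the differences in log2 fold change were 4.04, 4.02 and 4.17.

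The same form was seen in members with current symbols. C34C6.7 (cup-16, named for uptake by coelomocytes, the scavenger cells of the body cavity) had 79.6 and 72.9 in *nmad-1* against 29.4 and 35.5 in WT at 20°C, and 440.4 and 505 in *nmad-1* against 10.9 and 13.2 in WT at 25°C. F40F12.7 (cbp-3, related to the CREB-binding proteins) had 214 and 139.8 in *nmad-1* against 75.1 and 63.8 in WT at 20°C, and 252 and 558 in *nmad-1* against 17.8 and 13.2 in WT at 25°C. The annotation places cbp-3 over cbp-2 on the same strand, so its share of the reads is uncertain. F55G11.4 on chromosome IV, which has no symbol, had 144 and 133 in *nmad-1* against 10.3 and 28.4 in WT at 20°C, and 746 and 1188 in *nmad-1* against 29.7 and 23.0 in WT at 25°C. Unlike cup-16 and cbp-3, it had much the same WT value in both tables, and its *nmad-1* value was the part that was higher at 25°C.

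Among the members with the highest WT values, Y39B6A.1 on chromosome V was measured in every library. It had 705 and 3110.5 in *nmad-1* against 618 and 586 in WT at 20°C, and 782 and 2385 in *nmad-1* against 216 and 471 in WT at 25°C. Its *nmad-1* library B was the higher at both temperatures, and at 20°C its library A was little above WT. Y58A7A.3 had 954 and 426 in *nmad-1* against 328 and 276 in WT at 20°C, and 746 and 954 in *nmad-1* against 138 and 152 in WT at 25°C. F17C11.11 had 760.2 and 371 in *nmad-1* against 247 and 271 in WT at 20°C, and 353 and 329 in *nmad-1* against 107 and 112 in WT at 25°C. T28F4.4 on chromosome I, which overlaps T28F4.5 and T28F4.8 on the other strand, had a small and even difference at both temperatures, with 292 and 269 in *nmad-1* against 149 and 126 in WT at 20°C and 442 and 539.5 in *nmad-1* against 229 and 201 in WT at 25°C.

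Y39B6A.1 was not the only member higher in library B. In 10 members B was at least 1.5 times A at both temperatures, among them Y39B6A.1, H34I24.2, F09C8.1 and F27E5.1 (asah-2, an acid ceramidase, an enzyme that splits the lipid ceramide). The share of all genes with this order was not measured, and the letters do not link libraries of different temperatures. At 25°C B was above A for 173 of the 201 members, so that part of the order is not particular to the 10. Summed over these 10, *nmad-1* libraries A and B had 1640 and 5215 against 1109 and 1216 in WT at 20°C, and 2132 and 6696 in *nmad-1* against 312 and 567 in WT at 25°C. Of the 16 intestine markers, the 6 vit genes had B above A at both temperatures, and of the other 10 markers 6 did at 20°C and 10 at 25°C. These 10 summed to 10536 and 25587 in *nmad-1* against 3430 and 4089 in WT at 25°C. Their part in the values of the 10 genes was not tested. F09C8.1 on the X chromosome had 147 and 364 in *nmad-1* against 36.8 and 37.3 in WT at 20°C, and 94.9 and 260.5 in *nmad-1* against 4.95 and 8.77 in WT at 25°C. asah-2 had 127 and 259 in *nmad-1* against 72.1 and 86.1 in WT at 20°C, and 102 and 270.5 in *nmad-1* against 18.8 and 10.97 in WT at 25°C.

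H14E04.1 (strm-1, a sterol methyltransferase) stood for members of a small and even difference. It had 73.0 and 60.2 in *nmad-1* against 25.0 and 27.5 in WT at 20°C, and 143 and 164 in *nmad-1* against 52.5 and 43.9 in WT at 25°C. Its log2 fold change was 1.304 at 20°C and 1.65 at 25°C. Both genotypes had higher values in the table of 25°C, which was scaled apart from that of 20°C.

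Some members neighbour each other. In the order of protein-coding genes and pseudogenes of the annotation, 20 members fell into 9 runs of adjacent members, the longest with 3. The run of W09B7.2 and W09B7.1, counted among them, repeats the values of the run of F07B7.2 and F07B7.1. How often candidates at large are adjacent was not measured, so nothing is read from this count. In the run of C27D8.3, C27D8.2 and C27D8.1 on chromosome IV, C27D8.3 had 434 and 485 in *nmad-1* against 177 and 169.5 in WT at 20°C, and 326 and 424 in *nmad-1* against 125 and 117 in WT at 25°C. C27D8.2 had 70.5 and 24.6 in *nmad-1* against 5.89 and 6.21 in WT at 20°C, and 59.5 and 129 in *nmad-1* against 8.91 and 2.19 in WT at 25°C. C27D8.1 had 42.3 and 13.6 in *nmad-1* against 2.94 and 6.21 in WT at 20°C, and 44.6 and 86.8 in *nmad-1* against 2.97 and 5.48 in WT at 25°C. The neighbours were thus not alike: C27D8.3 was even between libraries, at log2 fold changes of 1.4004 and 1.61, and the others were higher in *nmad-1* library A at 20°C, at 2.60 and 3.98 for C27D8.2 and 2.23 and 3.64 for C27D8.1. C27D8.2 and C27D8.3 overlap on opposite strands.

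The other run of 3, also on chromosome IV, joined the pseudogene ZK593.9 to Y69E1A.1 and nsph-3.1. ZK593.9 had 27.8 and 16.5 in *nmad-1* against 3.95 and 9.76 in WT at 20°C, and 77.8 and 80.3 in *nmad-1* against 8.17 and 9.87 in WT at 25°C. Y69E1A.1 had 98.7 and 11.02 in *nmad-1* against 8.83 and 0 in WT at 20°C, and 70.9 and 139 in *nmad-1* against 0.990 and 4.39 in WT at 25°C.

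On chromosome V, C49G7.12 and C49G7.10 made a run. C49G7.12 had 30.7 and 16.1 in *nmad-1* against 2.94 and 2.66 in WT at 20°C, and 28.6 and 37.98 in *nmad-1* against 0 and 0 in WT at 25°C, at least 10.6-fold higher there against 3 reads in each WT library. C49G7.10 had 169.9 and 74.6 in *nmad-1* against 57.4 and 55.9 in WT at 20°C, and 109.8 and 119 in *nmad-1* against 12.9 and 7.68 in WT at 25°C. Both had lower WT values in the table of 25°C, while their *nmad-1* values overlapped between the tables.

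The run of F07B7.2 and F07B7.1, also on chromosome V, is the one whose values recur under W09B7.2 and W09B7.1. F07B7.2 had 101 and 132 in *nmad-1* against 42.0 and 30.6 in WT at 20°C, and 373 and 282 in *nmad-1* against 125 and 167 in WT at 25°C. F07B7.1 was lower, with 29.8 and 38.6 in *nmad-1* against 12.5 and 11.98 in WT at 20°C, and 28.6 and 16.3 in *nmad-1* against 9.41 and 8.77 in WT at 25°C. Reads of near-identical copies can be split between them, so the levels of these 4 genes are uncertain. F07B7.1 and W09B7.1 were among the 6 members that were not called at 25°C.

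By annotation, 196 members were protein-coding and 5 were pseudogenes. The median coding length was 1042.5 bases for the members, against 1020 for the protein-coding candidates, and the median number of exons was 5, against 6. The members lay on all chromosomes, but only 10 of the 201 (4.98%) were on the X, against 13.2% of the candidates with a chromosome, and none of those 10 belonged to the 79 with *nmad-1* library A at least 3 times B. Chromosomes I and IV held 23 and 22 of these 79, and chromosome V held 34 of the remaining members. Median log2 fold changes ran at 20°C from 1.21 on the X to 2.69 on chromosome IV, and at 25°C from 2.35 on chromosome III to 3.999 on chromosome IV. These shares and medians are descriptions and were not tested. In 40 members the gene overlaps another on the opposite strand, and in 8 on the same strand.

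**Figure D5:**
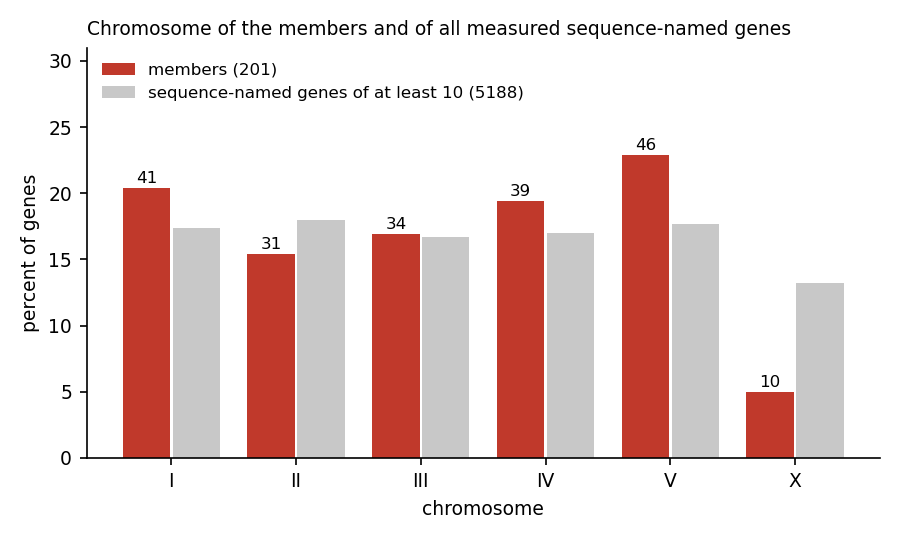
Percent of the 201 members (red, left bar) and of the candidates with a chromosome in the annotation (grey, right bar) on each chromosome, with the number of members above its bar. The X chromosome held 10 members, 4.98%, against 13.2% of candidates.

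Genes with a symbol met the same thresholds in 130 cases. Those with the largest smaller fold change were ssp-11, ilys-2, msp-65, msp-10 and msp-53, of which msp genes encode major sperm proteins and ilys-2 an invertebrate-type lysozyme.

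The membership itself rested on the libraries of 20°C. With *nmad-1* library A at 20°C left out, 101 genes met the rule, and 68 of them were among the 201. With *nmad-1* library B left out, 508 genes met it, 184 of the 201 among them, and without WT library A or B at 20°C 361 and 322 did. Leaving out a library also removes a condition, so these counts can grow for that reason. Without any of the libraries of 25°C the number stayed between 176 and 204. The number of members called at 20°C was 106 of 195 tested without *nmad-1* library B, and 10 and 4 of 201 without WT library A and B. Without *nmad-1* library A it was 12, but of only 109 members tested, and 7 of the 12 were among the 20. The median log2 fold change of the members at 20°C was 1.20 without *nmad-1* library A and 2.32 without library B.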

How the data were processed

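Germline mRNA was sequenced. The authors trimmed the reads, aligned them to WS220 (ce10) with Bowtie2 2.2.9 and quantified them in the RSEM 1.3.0 pipeline, and the signal they deposited per gene and library is read from the values as RSEM's expected count divided by EBSeq's size factor, for each temperature in a table of its own. Columns were given to groups by the comparison that the sample descriptions name, and they carry no replicate numbers. The authors also deposited tables of their own comparisons (posterior probabilities and fold changes), which were not used. The value of 1 read was taken as the most frequent value above 0 in a library. Between 90.6% and 92.5% of values were whole multiples of it within 0.05, too few for a count test, so no count model was fitted. A 0 allows up to 3 reads, which covers counting error only.

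Genes with a mean of at least 10 entered a limma fit (version 3.58.1, R 4.3.3) of log2(value + 1) in which the prior variance followed the mean level, and p-values were adjusted by Benjamini-Hochberg at 0.05, in 4 libraries per temperature and over 8 libraries for the interaction. The log2 fold changes of low genes are understated on this scale. The fits were checked on simulated data, in which all 200 changed genes were recovered at each temperature, with 6 false calls at 20°C and 9 at 25°C. For the interaction 390 of 394 were recovered, with 17 false calls. The changed genes had higher WT values than most members, and their simulated libraries lay close together. The check therefore does not speak for low genes or for uneven libraries. Alternatives were pseudocounts of 0.5 and 5, no filter, a mean of at least 100, scaling to the same total or upper quartile, no trend, folds of 1.5 and 4 in the rule, and each library left out in turn.

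The members, gene lists and tests were chosen with earlier results of these data known. Named were the 10 members with the largest smaller log2 fold change, the 5 of highest WT mean, the 3 with the largest and the 3 with the smallest difference between temperatures, the 3 nearest the fold threshold on either side, members of a gene class with at least 2 members, the first 4 runs of neighbours and any member at 0 in all WT libraries. Outside this rule, cup-16, cbp-3, F55G11.4, spe-18, strm-1, asah-2 and F09C8.1 were named after their values were seen. Symbols, chromosomes and neighbours come from WBcel235, which is another build than the authors', so no coordinates are given. Sequences, protein similarity and promoter motifs were not analysed here.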

Additional observations from a re-analysis of the deposited data

Results flagged for a closer look

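For 6 of the members named above, the log2 fold change differed between 25°C and 20°C by the interaction test (limma over the 8 libraries, Benjamini-Hochberg over all genes). The same values chose the members, so these differences are descriptions. The log2 fold change at 25°C minus that at 20°C was 4.17 ± 0.80 (SE) for C18A11.1, 4.04 ± 0.46 for C14C6.5, 4.02 ± 0.70 for H34I24.2, 2.54 ± 0.71 for C39D10.11 and 2.42 ± 0.60 for C49G7.10. It was −1.63 ± 0.46 for C08F11.7, the only one of the 6 with the larger difference at 20°C. C39D10.11, on the X chromosome and just inside the fold threshold at 20°C, had 97.0 and 45.8 in *nmad-1* against 29.4 and 40.8 in WT at 20°C, and 94.9 and 208 in *nmad-1* against 15.8 and 8.77 in WT at 25°C.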

How the results depend on the processing

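No paired analysis was possible because the columns carry no replicate numbers, so the fit with a replicate block was not run. The number of genes meeting the rule was 642 with no filter, 16 at a mean of at least 100, 322 with upper quartile scaling, 448 at a fold of at least 1.5 and 78 at a fold of at least 4, and 101 to 508 with a library left out; under the other alternatives it was 169 to 264. Of the 201 members, those called at 20°C numbered 1 with no filter, 11 of 20 tested at a mean of at least 100, 2 with the same total, 0 with upper quartile scaling (71 at an unadjusted p under 0.05), 1 without the trend and 4 to 106 with a library left out, where 109 to 201 were tested. At 25°C they numbered 40 of 40 tested at a mean of at least 100, where fewer genes were tested, and 165 to 200 otherwise. For the interaction, 17 in all, they numbered 8 of 16 tested at a mean of at least 100, 30 with the same total, 5 with upper quartile scaling, 1 without the trend and, with a library left out, 2 of 195 tested to 51 of 109 tested. The cause of these shifts was not tested. Scaling to the same total moved the median of all genes at 25°C to 0.52 and upper quartile scaling to 0.33, and the genes called higher and lower there were 6277 and 767, and 5049 and 1699, against 3917 and 4545 as deposited. The median log2 fold change of the members at 25°C was 2.49 at a pseudocount of 5, and otherwise the medians were 1.20 to 2.32 at 20°C and 2.902 to 3.73 at 25°C. These are medians of the members tested under each alternative, which for the 1.20 were 109. For the members named, no alternative turned the direction in 725 comparisons, while 65 lost and 29 gained the threshold. By the rule both *nmad-1* values of a member lie above both WT values, so only the rescalings could have turned the direction.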
